A study of Mus musculus with 10 samples.

Results

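A set of 35 genes that mark the endothelial cells of the liver was followed in whole mouse livers after knockdown of the Rab5 GTPases, the small switch proteins that organise early endosomes. The genes were taken as every named probe set, on the expression array used, whose gene symbol was on a fixed list of 11 genes of sinusoidal endothelium, 20 genes of endothelium in general and 4 genes of secreted factors. All 35 of 35 had a probe set among the 18193 gene symbols of the table, and 33 passed the filter on dim probe sets (above the table's median of 4.33 in at least 2 arrays), out of 12855 genes that passed in all. The 2 that did not pass were Pecam1 and Emcn. The members were listed with earlier results of these data known.

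The mice were males of the inbred strain C57BL/6 NHsd, and liver RNA was read on Affymetrix Mouse Genome arrays. Rab5 siRNA livers (4 arrays) had received lipid nanoparticles with small interfering RNA (siRNA) against all Rab5 genes, control siRNA livers (4 arrays) had received the same kind of particle with a control siRNA, and PBS livers (2 arrays) had received phosphate-buffered saline without particles. Injection was into the tail vein, the siRNA dose was 1.5 mg/kg, and the livers were collected on day 5. The sample titles call the control RNA scrambled while the series' design text names luciferase, so only "control siRNA" is used here. Whether each numbered liver of a group is a mouse of its own is not stated in the labels, and the p-values then rest on a spread that may be technical. All 4 Rab5 siRNA livers carry the same label, with no second set of Rab5 siRNAs among the samples analysed here, and the sources used here do not say which liver cells took up the particles. Ages are not given in the labels.

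Liver sinusoids are capillaries lined by a perforated endothelium that lies directly against the hepatocytes. Its cells are among the most active scavengers of the body: stabilins, lectins and an inhibitory Fc receptor bind waste molecules in blood and carry them through coated vesicles into early endosomes. The same cells release signals to hepatocytes, among them bone morphogenetic proteins (BMPs) that set iron balance and Wnt proteins that maintain the gene programme around the central vein. Endothelium everywhere, sinusoids included, uses the junction, receptor and transcription factor genes that form the general group.

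Values are log2 signals, and levels of different genes cannot be compared because each probe set has its own affinity. Array medians lay between 4.29 and 4.37. Over the 12855 genes that passed the filter, arrays of the same group correlated at 0.975 to 0.992 (different groups 0.942 to 0.991). The targeted genes Rab5a and Rab5c fell by 1.81 and 1.99 on the log2 scale in Rab5 siRNA livers against control siRNA livers, while Rab5b, a dim gene, differed by -0.24 with an adjusted p of 0.194. A gene is called here when its adjusted p is under 0.05 (limma, all 10 arrays in 1 model, Benjamini-Hochberg over 12855 genes). By that measure 23.3% of all genes were called between Rab5 siRNA and control siRNA livers, 13.8% higher and 9.51% lower.

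Between Rab5 siRNA and control siRNA livers 8 of the 33 measured endothelial genes were called, and they did not move in 1 direction. The receptor gene Flt4 and the junction gene Cdh5 rose, and 6 fell: Clec4g, Gpr182, Oit3, Ptprb, Sox18 and Bmp6. The 8 are 24.2% of the 33 measured members, close to the 23.3% of all genes, so the count by itself does not set the members apart. The median difference of the members was -0.04, beside 0.00 for all genes, and the median size of the difference was 0.20, beside 0.18 for all genes. Groups did not overlap array by array for 7 members, 2 with all Rab5 siRNA arrays above and 5 with all below, beside 25% of all genes. The largest difference among the members was -0.53, and the largest among all genes measured 3.64 in size. In bulk liver, fewer endothelial cells and less RNA per cell cannot be told apart.

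**Figure D1:**
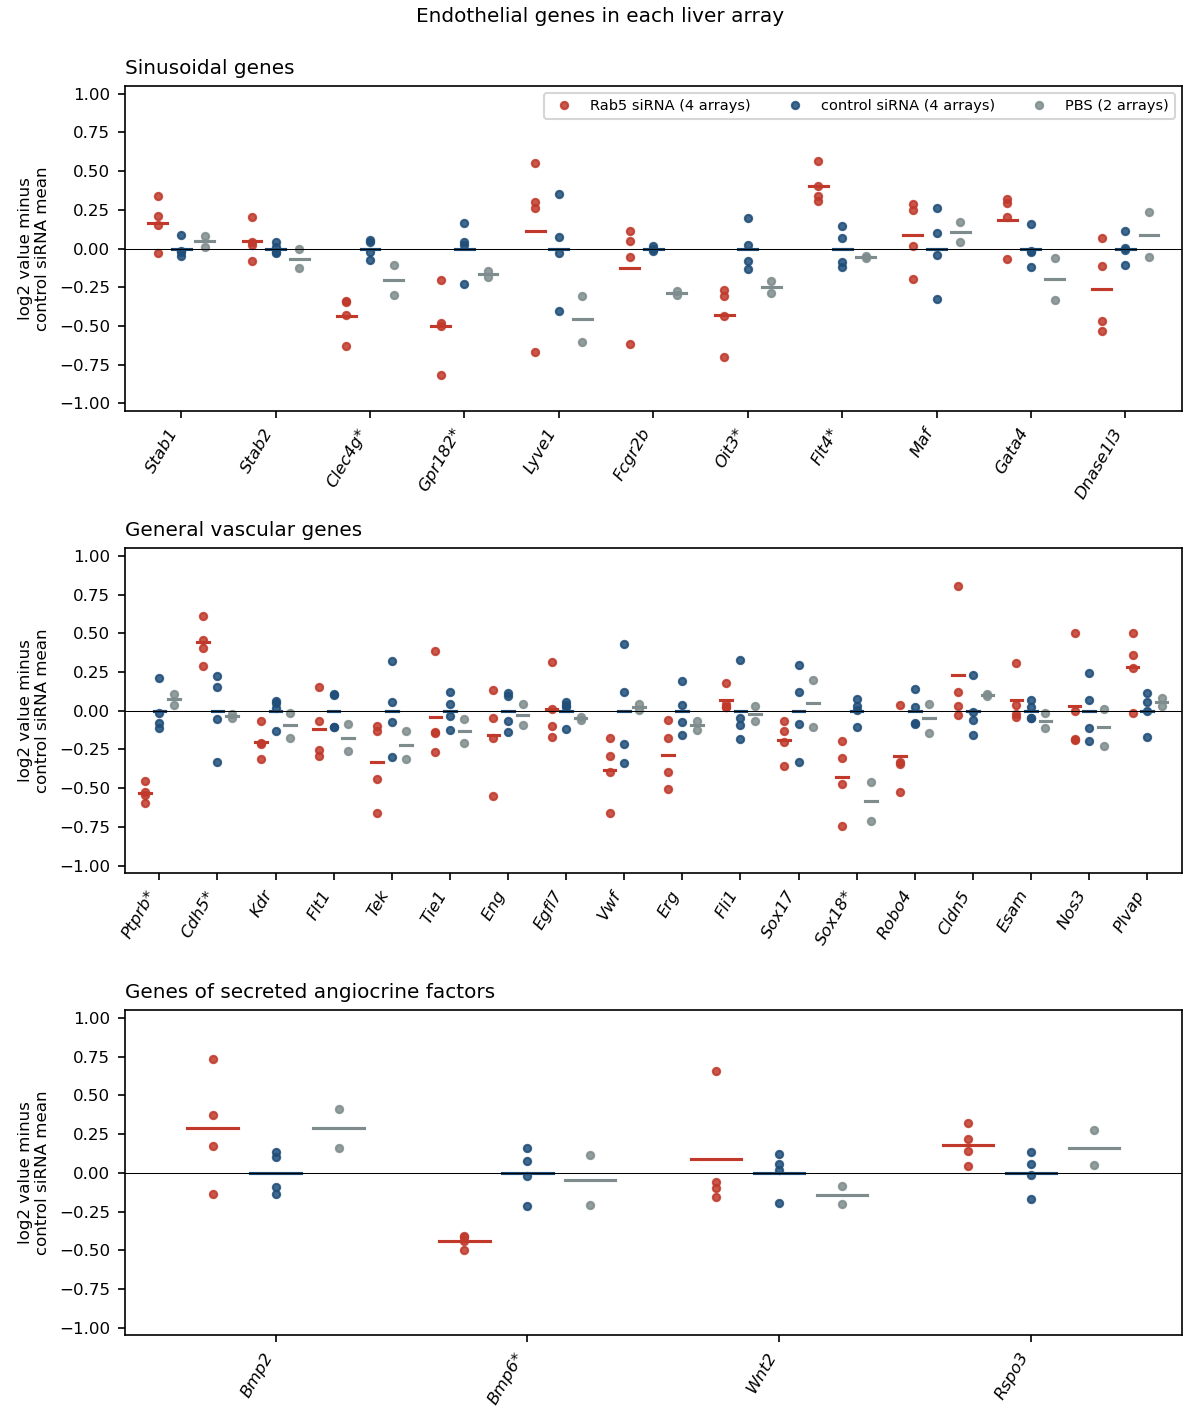
Log2 value of each measured endothelial gene in each array, minus the mean of its 4 control siRNA arrays (vertical axis), for Rab5 siRNA (left of each gene), control siRNA (middle) and PBS livers (right); horizontal bars are group means and an asterisk marks the 8 genes called between Rab5 siRNA and control siRNA. The Rab5 siRNA means of the called genes lie between -0.53 and 0.44, with single arrays spread more widely, and the 4 Bmp6 values of Rab5 siRNA livers lie close together.

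Among the sinusoidal genes, the lectin gene Clec4g fell and the stabilin genes were not called, a contrast that was not itself tested. Stab2, which encodes stabilin-2, the main hyaluronan scavenger receptor of sinusoids, had log2 signals of 8.33, 8.17, 8.15 and 8.05 in Rab5 siRNA livers, against 8.13, 8.10, 8.17 and 8.10 in control siRNA livers and a mean of 8.06 ± 0.0858 in PBS livers (SD, n = 2). The groups overlapped, the difference was 0.05 with a 95% interval of -0.15 to 0.25, and the adjusted p was 0.747. Stab1, its relative with a role in both endothelium and macrophages, differed by 0.17 (interval -0.04 to 0.38, adjusted p 0.245), with 3 of 4 Rab5 siRNA arrays above every control siRNA array.

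Clec4g encodes LSECtin, a C-type lectin of sinusoidal endothelium that binds glycans and T cells. Its signals were 9.08, 8.99, 8.79 and 9.07 in Rab5 siRNA livers, against 9.46, 9.47, 9.34 and 9.40 in control siRNA livers and 9.12 and 9.32 in PBS livers. Every Rab5 siRNA array lay below every control siRNA array and below both PBS arrays, although the first PBS array was only slightly higher. Clec4g fell by 0.43 on the log2 scale against control siRNA (SE 0.0980, adjusted p 0.00594), which leaves 74.0% of the control siRNA signal. Against PBS the difference was -0.23, with an interval of -0.49 to 0.03 and an adjusted p of 0.223.

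Start regions are shown for Clec4g, which fell, and for Stab2, which was not called. They were chosen with these results known, and the difference between Clec4g and Stab2 was not tested. Each sequence is the RefSeq promoter window of the mouse assembly GRCm38.p6, 300 bases with 250 before the transcript start and 50 after it, read along the strand of the gene. Clec4g lies at chr8:3720602-3720901 on the minus strand and Stab2 at chr10:87007893-87008192 on the minus strand. Capitals mark matches to the core of the ETS factors (AGGAAG or CGGAAG on either strand), the family of the members Erg and Fli1, to GATA motifs (AGATAA or TGATAA) and to a SOX motif (AACAAT).
Clec4g: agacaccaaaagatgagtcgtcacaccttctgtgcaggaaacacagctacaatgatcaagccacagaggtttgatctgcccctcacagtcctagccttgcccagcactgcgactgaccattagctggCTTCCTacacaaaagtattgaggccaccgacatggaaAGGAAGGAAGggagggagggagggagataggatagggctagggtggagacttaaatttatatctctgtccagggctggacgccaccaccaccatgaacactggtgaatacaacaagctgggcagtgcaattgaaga
Stab2: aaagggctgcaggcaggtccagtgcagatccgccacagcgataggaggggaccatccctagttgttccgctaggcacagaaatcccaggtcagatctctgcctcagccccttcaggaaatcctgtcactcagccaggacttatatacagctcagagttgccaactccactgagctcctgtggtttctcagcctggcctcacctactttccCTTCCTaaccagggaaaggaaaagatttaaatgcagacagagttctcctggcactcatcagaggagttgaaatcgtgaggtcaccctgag
The Clec4g window held 3 ETS matches, of which a pair on the printed strand overlap, and the Stab2 window held 1 ETS match. Neither held a GATA or SOX match. Any link between these matches and the signals of Clec4g and Stab2 was not tested.

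A promoter window was on hand for 17 of the 35 members, 21 windows in all because Egfl7 and Erg have several. An ETS match was present in 11 of 21 windows, or 52.4%, beside 46.5% of 32851 mouse promoter windows of the same length. GATA matches were present in 23.8% of the members' windows and 18.6% of all windows, and SOX matches in 14.3% and 10.7%. These are matches of letters, not binding sites. Flt4, which rose, and Bmp6, which fell, had none of the 3 motifs in their windows, at chr11:49609429-49609728 on the plus strand and chr13:38345466-38345765 on the plus strand.
Flt4: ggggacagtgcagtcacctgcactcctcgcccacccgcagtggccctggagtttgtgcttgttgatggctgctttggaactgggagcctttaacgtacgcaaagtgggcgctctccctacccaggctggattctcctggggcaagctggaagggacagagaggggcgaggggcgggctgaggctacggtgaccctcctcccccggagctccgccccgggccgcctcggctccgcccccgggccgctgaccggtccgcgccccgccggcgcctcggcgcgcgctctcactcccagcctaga
Bmp6: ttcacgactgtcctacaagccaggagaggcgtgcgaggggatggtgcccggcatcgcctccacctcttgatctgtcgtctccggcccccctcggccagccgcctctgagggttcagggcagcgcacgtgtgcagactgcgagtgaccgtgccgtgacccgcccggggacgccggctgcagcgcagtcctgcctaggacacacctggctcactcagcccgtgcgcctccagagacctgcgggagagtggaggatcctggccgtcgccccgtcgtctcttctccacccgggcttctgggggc
Both windows are therefore printed without capitals.

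Gpr182 encodes an atypical chemokine receptor of endothelium that is abundant in liver sinusoids. It read 7.34, 7.04, 7.06 and 6.72 in Rab5 siRNA livers, against 7.57, 7.31, 7.70 and 7.58 in control siRNA livers and 7.39 and 7.36 in PBS livers. The first Rab5 siRNA array reached into the control siRNA range, and the other 3 lay below it. Gpr182 fell by 0.50 against control siRNA (SE 0.130, adjusted p 0.0132), to 70.7% of the control siRNA signal. Against PBS the difference was -0.34 (interval -0.68 to 0.01, adjusted p 0.183).

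Oit3, a gene of a secreted zona pellucida domain protein found in sinusoids, read 6.23, 6.27, 5.84 and 6.11 in Rab5 siRNA livers, against 6.56, 6.46, 6.73 and 6.40 in control siRNA livers and 6.25 and 6.33 in PBS livers. Rab5 siRNA and control siRNA arrays did not overlap, while the PBS arrays lay beside the highest Rab5 siRNA arrays. Oit3 fell by 0.43 against control siRNA (SE 0.115, adjusted p 0.0163), and its difference from PBS was -0.18 with an adjusted p of 0.453. The call against control siRNA was not kept without control siRNA replicate 3 (-0.36, adjusted p 0.0523) or without Rab5 siRNA replicate 3 (-0.34, adjusted p 0.0524).

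Flt4 encodes VEGF receptor 3, the receptor for VEGF-C, which sinusoidal and lymphatic endothelium share. It read 7.61, 7.77, 7.52 and 7.55 in Rab5 siRNA livers, against 7.09, 7.12, 7.35 and 7.27 in control siRNA livers and 7.15 and 7.16 in PBS livers. All 4 Rab5 siRNA arrays lay above all 6 other arrays. Flt4 rose by 0.40 against control siRNA (SE 0.0981, adjusted p 0.00904) and by 0.46 against PBS (adjusted p 0.0173). A dimmer second probe set of Flt4 differed by 0.01, and with the mean of both the difference was 0.21 with an adjusted p of 0.117. Leaving out both siRNA arrays numbered 2 gave 0.32 with an adjusted p of 0.0944.

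Lyve1, the hyaluronan receptor that marks sinusoidal and lymphatic endothelium and some macrophages, spread more widely than its neighbours on the list. Its signals were 7.23, 6.94, 6.01 and 6.98 in Rab5 siRNA livers, against 6.27, 6.75, 6.65 and 7.03 in control siRNA livers and 6.07 and 6.37 in PBS livers. The third Rab5 siRNA array was the lowest of all 10 and the first was the highest. The difference from control siRNA, 0.11, had an interval of -0.38 to 0.60, and its sign turned without Rab5 siRNA replicate 1 (-0.03) and without control siRNA replicate 1 (-0.02).

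The other 4 sinusoidal genes were not called against control siRNA. Fcgr2b, the inhibitory Fc receptor through which sinusoids clear immune complexes and which macrophages also use, differed by -0.13, and Rab5 siRNA replicate 3 alone lay far below the rest (7.85, against 8.41 or more in the other 3). Without that array the Fcgr2b difference was 0.04. Dimmer Fcgr2b probe sets above the filter differed by -0.17, -0.22 and -0.34 with all arrays, and the one below it by 0.08, none of them called. Dnase1l3, a secreted nuclease, differed by -0.26 (adjusted p 0.188), and it was called without Rab5 siRNA replicate 1 (-0.37, adjusted p 0.0419). Its dimmer probe set, also above the filter, differed by -0.37 with all arrays. That probe set was called when the most variable one stood for each gene (adjusted p 0.0486), but not when every probe set was tested on its own (adjusted p 0.0621). Gata4, the transcription factor that specifies sinusoidal endothelium, differed by 0.19 (interval -0.06 to 0.43), and by 0.38 from PBS with an adjusted p of 0.0836. Another Gata4 probe set, below the filter, differed by -0.24 from control siRNA. Maf, another transcription factor of sinusoids and of macrophages, differed by 0.09 on its brightest probe set and by -0.21 to -0.41 on its other 5, none of them called.

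Over the 11 sinusoidal genes, 1 rose, 3 fell and 7 were not called, with a median difference of 0.05. The called share was 36.4%, beside 23.3% of all genes, a gap in few genes that was not tested. The 4 genes Stab2, Clec4g, Gpr182 and Lyve1 are commonly used as sinusoidal markers. Of these 4, Clec4g and Gpr182 fell and kept their calls without any single array, and Stab2 and Lyve1 were not called. They were set against 3 general endothelial markers, Pecam1, Cdh5 and Vwf.

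Of those 3, Cdh5 rose and Vwf did not pass the test. Cdh5 encodes VE-cadherin, the adhesion protein of endothelial junctions, and read 6.84, 7.17, 7.01 and 6.96 in Rab5 siRNA livers, against 6.23, 6.71, 6.50 and 6.78 in control siRNA livers and 6.53 and 6.51 in PBS livers. All Rab5 siRNA arrays lay above all others. Cdh5 rose by 0.44 against control siRNA (SE 0.125, adjusted p 0.0214) and by 0.48 against PBS (adjusted p 0.0479). The call against control siRNA was not kept without control siRNA replicate 1 (0.33, adjusted p 0.0592) or replicate 3 (0.42, adjusted p 0.0530), nor without Rab5 siRNA replicate 2 (0.38, adjusted p 0.0727) or replicate 3 (0.44, adjusted p 0.0516). A second probe set of Cdh5, below the filter, differed by -0.09.

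Vwf encodes von Willebrand factor, which is stored in the larger hepatic vessels and is low in healthy sinusoids. It read 4.84, 4.74, 4.96 and 4.48 in Rab5 siRNA livers, against 4.80, 4.92, 5.57 and 5.26 in control siRNA livers and 5.14 and 5.18 in PBS livers. Control siRNA replicates 3 and 4 were high and the other 2 lay within the Rab5 siRNA range. The difference was -0.38 with an interval of -0.72 to -0.04 and an adjusted p of 0.103, and it was called without control siRNA replicate 1 (-0.49, adjusted p 0.0430). Pecam1, the adhesion molecule CD31, was represented by a single dim probe set (3.60 ± 0.190 in Rab5 siRNA livers, 3.64 ± 0.225 in control siRNA livers and 3.56 ± 0.0674 in PBS livers, SD over 4, 4 and 2 arrays), too low to carry a comparison.

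**Figure D2:**
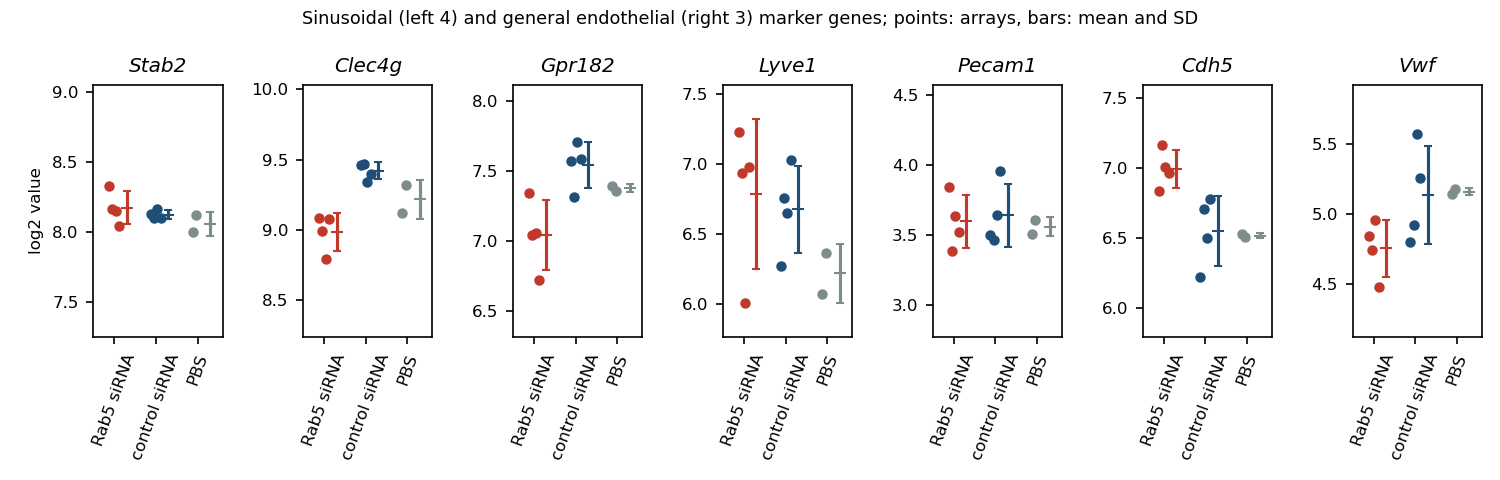
Log2 signal (vertical axes, all of the same height in log2 units) of 4 sinusoidal marker genes and 3 general endothelial marker genes in Rab5 siRNA, control siRNA and PBS livers; points are arrays, and bars show the mean and SD of 4, 4 and 2 arrays. Clec4g is lower and Cdh5 higher in all 4 Rab5 siRNA arrays than in the control siRNA arrays, while Stab2, Lyve1, Pecam1 and Vwf overlap.

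The mean of the 4 sinusoidal markers minus the mean of the 3 general markers was taken per array as a description. It was 2.82, 2.68, 2.30 and 2.72 in Rab5 siRNA livers, against 3.02, 2.88, 2.73 and 2.69 in control siRNA livers and 2.59 and 2.69 in PBS livers. The means were 2.63 ± 0.228, 2.83 ± 0.149 and 2.64 ± 0.0766 (SD, n = 4, 4 and 2). The Rab5 siRNA mean was thus 0.20 below control siRNA and 0.01 below PBS, and the groups overlapped. Without Pecam1 the difference from control siRNA was -0.22. With all 11 measured sinusoidal and all 18 measured general genes the sign was the other way, at 0.03, so the direction depended on which markers were taken.

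The general endothelial genes as a group held 1 member that rose and 2 that fell among 18 measured, with 15 not called. The called share was 16.7%, beside 23.3% of all genes, which was not tested either, and the median difference was -0.14. Receptors and their regulators come first. Ptprb encodes VE-PTP, the phosphatase that acts on the receptor Tie2 and on VE-cadherin, and it showed the largest difference of the members. It read 7.58, 7.44, 7.51 and 7.49 in Rab5 siRNA livers, against 7.96, 7.92, 8.25 and 8.02 in control siRNA livers and 8.08 and 8.15 in PBS livers. All 4 Rab5 siRNA arrays lay below all 6 others by more than the width of their own range. Ptprb fell by 0.53 against control siRNA (SE 0.0964, adjusted p 0.00136) and by 0.60 against PBS (adjusted p 0.00297), and a second bright probe set fell by 0.44.

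Tek and Tie1 encode the angiopoietin receptor Tie2 and its partner. Tek read 4.75, 5.10, 4.53 and 5.07 in Rab5 siRNA livers, against 4.90, 5.12, 5.51 and 5.25 in control siRNA livers and 4.88 and 5.06 in PBS livers, and its difference of -0.33 had an adjusted p of 0.134. Tie1 differed by -0.04, with an interval of -0.33 to 0.25. Among the VEGF receptors, Kdr (VEGF receptor 2) differed by -0.20 (interval -0.41 to 0.00, adjusted p 0.147) and Flt1 (VEGF receptor 1) by -0.12 (interval -0.37 to 0.13). Flt4 was the only 1 of these 3 VEGF receptor genes that was called, and the difference between the 3 was not tested. Eng, the co-receptor endoglin for BMP9 and TGF-beta, differed by -0.16, and Robo4, a guidance receptor that stabilises vessels, by -0.29 (adjusted p 0.105). Robo4 was called without Rab5 siRNA replicate 1 (-0.40, adjusted p 0.0134).

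Sox18, a transcription factor of vessel and lymphatic development, was the called member whose controls differed most. It read 5.67, 5.56, 5.40 and 5.12 in Rab5 siRNA livers, against 5.94, 5.87, 5.76 and 5.89 in control siRNA livers and 5.16 and 5.41 in PBS livers. The Rab5 siRNA arrays lay below every control siRNA array and spanned the level of PBS livers. Sox18 fell by 0.43 against control siRNA (SE 0.121, adjusted p 0.0212), while its difference from PBS was 0.16 (adjusted p 0.545) and control siRNA livers differed from PBS livers by 0.59 (adjusted p 0.602). The call was not kept without control siRNA replicate 1 (-0.40, adjusted p 0.0547), Rab5 siRNA replicate 3 (-0.41, adjusted p 0.0556) or Rab5 siRNA replicate 4 (-0.32, adjusted p 0.0540).

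The other transcription factors of the group gave no call on the probe set that stood for them. Erg, which maintains endothelial identity, differed by -0.28 (adjusted p 0.101), Sox17, an arterial factor, by -0.19, and Fli1, a relative of Erg, by 0.07. Erg was dim, with a mean of 4.29 beside the filter level of 4.33. Second probe sets of both ETS genes were called when every probe set was tested on its own. For Fli1 this probe set read 4.02, 4.83, 4.39 and 4.60 in Rab5 siRNA livers, against 3.43, 3.81, 3.93 and 4.05 in control siRNA livers and 3.97 and 3.90 in PBS livers, a rise of 0.66 (adjusted p 0.0152) in groups that overlapped. It passed the filter in 3 arrays, all of them Rab5 siRNA arrays. For Erg the second probe set, below the filter, fell by 0.46 (adjusted p 0.0124).

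Junction, surface and enzyme genes of the group were not called, Cdh5 aside. Plvap, which forms the diaphragms of endothelial openings, read 8.72, 8.64, 8.86 and 8.34 in Rab5 siRNA livers, against 8.19, 8.41, 8.36 and 8.47 in control siRNA livers and 8.44 and 8.39 in PBS livers. Only Rab5 siRNA replicate 4 reached into the control siRNA range. Its difference of 0.28 had an adjusted p of 0.104, and without Rab5 siRNA replicate 4 it was called (0.38, adjusted p 0.0236). Cldn5, the tight junction gene of endothelium, differed by 0.23 (interval -0.12 to 0.59), with Rab5 siRNA replicate 1 at 7.50 and the other 3 at 6.67 to 6.81. Esam (an adhesion molecule), Egfl7 (a secreted vessel factor) and Nos3 (the endothelial nitric oxide synthase) differed by 0.07, 0.01 and 0.03, and without Rab5 siRNA replicate 1 all 3 turned in sign (-0.01, -0.09 and -0.13). Emcn, the gene of the surface sialomucin endomucin, lay below the filter and differed by -0.19.

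**Figure D3:**
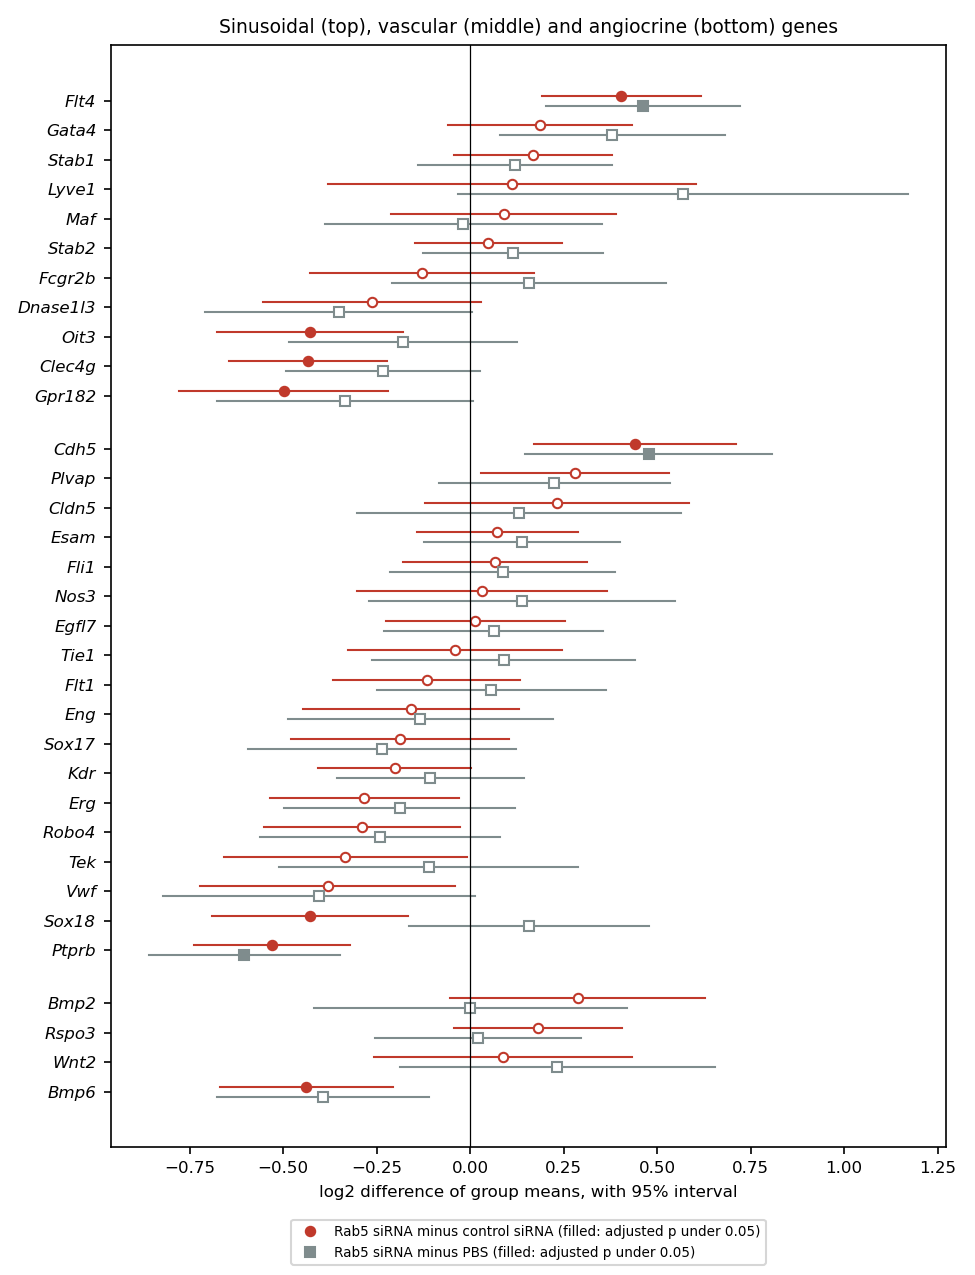
Difference of group means in log2 units with its 95% interval (horizontal axis) for the 33 measured endothelial genes, sorted within the sinusoidal, general vascular and secreted factor groups; circles are Rab5 siRNA minus control siRNA, squares Rab5 siRNA minus PBS, and filled symbols have an adjusted p under 0.05. Flt4, Cdh5 and Ptprb are filled in both comparisons, which share the Rab5 siRNA arrays.

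The secreted factors were Bmp2, Bmp6, Wnt2 and Rspo3. BMP2 and BMP6 from sinusoids drive hepcidin in hepatocytes, and Wnt2 and R-spondin 3 act on the hepatocytes around the central vein. Bmp6 read 4.76, 4.78, 4.70 and 4.79 in Rab5 siRNA livers, against 5.27, 4.98, 5.35 and 5.17 in control siRNA livers and 4.99 and 5.31 in PBS livers. The Rab5 siRNA arrays were close together and below all others. Bmp6 fell by 0.44 against control siRNA (SE 0.107, adjusted p 0.00934), to 73.8% of the control siRNA signal, and its difference from PBS was -0.39 (interval -0.68 to -0.11, adjusted p 0.0567).

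Bmp2 was not called. Its signals were 7.95, 8.46, 8.26 and 8.82 in Rab5 siRNA livers, against 7.95, 8.19, 7.99 and 8.22 in control siRNA livers and 8.24 and 8.50 in PBS livers. The first Rab5 siRNA array lay with the lowest control siRNA arrays and the other 3 above all of them, but the PBS arrays were as high as the Rab5 siRNA arrays. The difference was 0.29 from control siRNA (adjusted p 0.219) and 0.00 from PBS, and without Rab5 siRNA replicate 1 it was called against control siRNA (0.43, adjusted p 0.0357).

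Wnt2 read 6.31, 5.59, 5.49 and 5.55 in Rab5 siRNA livers, against 5.67, 5.70, 5.77 and 5.45 in control siRNA livers and 5.56 and 5.45 in PBS livers. A single Rab5 siRNA array, the first, stood above all the others. The difference was 0.09 with all arrays and -0.10 without that array. Rspo3 differed by 0.18 (interval -0.04 to 0.41, adjusted p 0.235), with 3 of 4 Rab5 siRNA arrays above every control siRNA array, and by 0.02 from PBS. A second Rspo3 probe set, below the filter, differed by -0.18.

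Rab5 siRNA livers were also set against PBS livers, a comparison that uses the same 4 Rab5 siRNA arrays. Here 3 of the 33 members were called (9.09%, beside 17.1% of all genes), Flt4 and Cdh5 higher and Ptprb lower. Of the other 5 members called against control siRNA, Clec4g, Gpr182, Oit3 and Bmp6 kept a negative sign without a call, and Sox18 had a positive one. The 3 calls rest on few PBS arrays: 1 member was called without PBS replicate 1, 1 without PBS replicate 2 and 1 without Rab5 siRNA replicate 2. Lyve1 had the widest interval of the members in this comparison, 0.57 (-0.03 to 1.17, adjusted p 0.199).

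Control siRNA livers were set against PBS livers to read what particles with the control RNA did. None of the 33 members was called by limma, nor was any other gene (0% of all genes), and 1 member, Sox18, had an unadjusted p under 0.05, as did 554 of all genes. Member differences lay between -0.29 for Bmp2 and 0.59 for Sox18, with a median of 0.06. A missing call does not show that the groups were alike.

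Probe sets of the same gene can disagree, and the members had 63 probe sets, 52 of them above the filter. When all 34945 named probe sets were tested on their own, 13% were called, and of the members' 63 probe sets 11 were called, 3 higher and 8 lower. Only 21068 of the 34945 passed the filter, so the 13% comes from a set with a larger share of dim probe sets. In all, 16 members had several probe sets, and for 7 of these they differed in sign. The brightest probe sets of Clec4g, Cdh5 and Flt4 carried their calls, while the dimmer ones differed by 0.16, -0.09 and 0.01. Ptprb was the only member with 2 called probe sets, and its other probe set, below the filter, differed by -0.20. Gpr182, Oit3, Sox18 and Bmp6 had 1 probe set each, so no second reading was to be had.

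**Figure D4:**
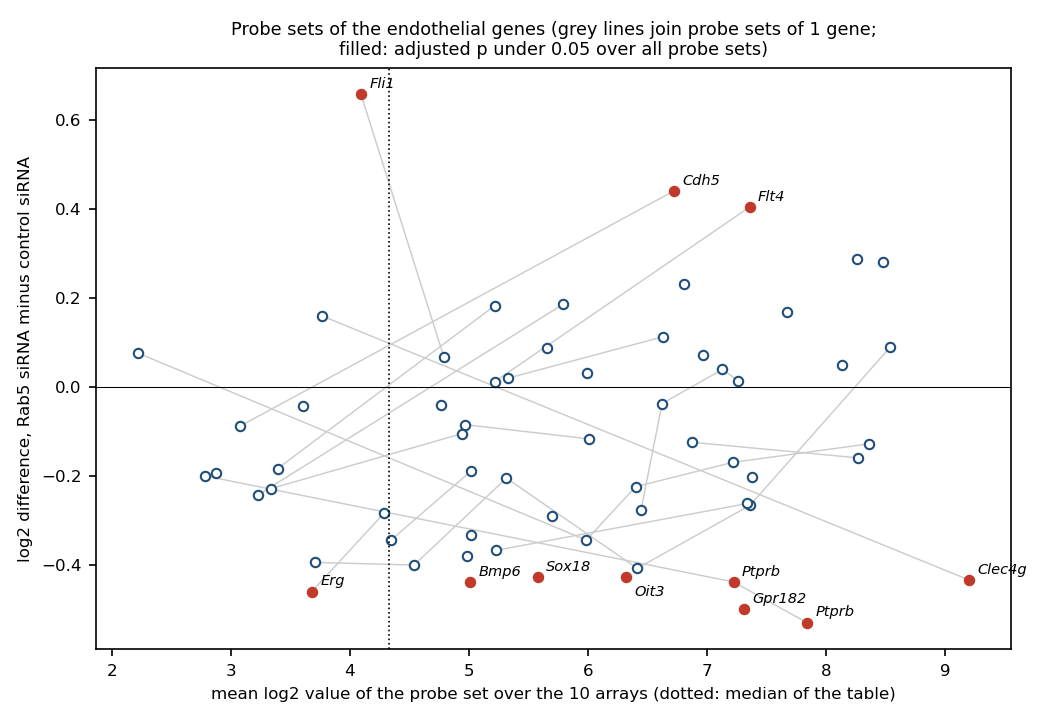
Difference between Rab5 siRNA and control siRNA livers in log2 units (vertical axis) against the mean log2 signal over 10 arrays (horizontal axis) for all 63 probe sets of the 35 endothelial genes; grey lines join probe sets of the same gene, filled points are called over all 34945 probe sets, and the dotted line is the filter level of 4.33. For Ptprb 2 of its 3 probe sets are filled, and for Cdh5, Flt4, Clec4g, Fli1 and Erg 1 of 2.

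Other genes of the same pathways were read from lists. The counts of these and later lists stand beside 13.8% of all genes called higher and 9.51% called lower. No list was tested against these shares. VEGF and angiopoietin ligands and co-receptors held 1 gene that rose and 1 that fell among 11 measured, with a median of 0.01: Vegfb rose by 0.46 (adjusted p 0.0445) and Nrp2, the co-receptor of VEGF receptor 3, fell by 0.36 (adjusted p 0.0326). With 1 array left out, a gene of the list rose only without control siRNA replicate 3 or Rab5 siRNA replicate 4, and none fell without control siRNA replicate 2 or 3 or Rab5 siRNA replicate 3 or 4. The Nrp2 readings were 5.80, 5.95, 5.67 and 5.56 in Rab5 siRNA livers, against 5.99, 6.22, 6.17 and 6.05 in control siRNA livers, without overlap.

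Of 9 measured Notch ligands, receptors and targets, 4 rose and none fell, beside 13.8% of all genes called higher. The median was -0.01. The 4 were the target genes Hes1 (0.71, adjusted p 0.00370) and Hey1 (0.41, adjusted p 0.0329), the ligand gene Dll1 (0.50, adjusted p 0.00709) and the receptor gene Notch1 (0.45, adjusted p 0.0201), all genes that other liver cells express too. With 1 array left out 2 to 4 genes of the list rose, the fewest without Rab5 siRNA replicate 3, and 1 fell without control siRNA replicate 1. Of 12 further transcription factors of endothelium, Ets2, which many cells express, rose by 1.67 and Nr2f2, a factor of venous identity, fell by 0.38 (adjusted p 0.0463). The median was -0.10, and with 1 array left out a gene of the list fell only without control siRNA replicate 2 or Rab5 siRNA replicate 1. The 4 further sinusoidal genes measured gave no call, with Cd36 at 0.28 and F8, the gene of coagulation factor VIII, at -0.27 (adjusted p 0.0799), although 1 gene of that list fell without control siRNA replicate 2 and 1 without Rab5 siRNA replicate 2.

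Of 10 measured endothelial adhesion molecules, 5 rose and 1 fell, beside 13.8% of all genes called higher and 9.51% lower. Their median was 0.37 beside 0.00 for all genes, and 4 or 5 rose when any single array was left out. Vcam1, which binds leukocytes, read 7.73, 8.28, 8.21 and 8.48 in Rab5 siRNA livers, against 6.95, 6.95, 6.80 and 7.04 in control siRNA livers and 6.99 and 6.65 in PBS livers, a rise of 1.24 against control siRNA (SE 0.147, adjusted p 5.18e-05). Cd93, a surface receptor of endothelium and myeloid cells, rose by 0.73, F11r, a tight junction molecule also found in epithelium, by 1.26, and Cd9, a tetraspanin of many cells, by 1.45. The rise of Icam2 (0.42) and the fall of the platelet and endothelial adhesion gene Selp (-0.41) complete the count, and were named after their values were seen.

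The targets of the secreted factors were read in the same arrays. Of 14 BMP receptors and targets, Id1 rose by 0.98 against control siRNA (adjusted p 0.00292) and none fell, with a median of -0.01. Hjv, the gene of the BMP co-receptor hemojuvelin in hepatocytes, rose by 0.89 (adjusted p 3.59e-05). These 2 of 14 are close to the 13.8% of all genes called higher. Lower calls appeared when 1 array was left out, 3 without Rab5 siRNA replicate 1, 2 without control siRNA replicate 2 and 1 without control siRNA replicate 1. Hamp, the hepcidin gene, differed by -0.01 (adjusted p 0.974), a target chosen for mention after its value was seen. Against PBS livers 2 of the 14 were called higher and 3 lower, beside 17.1% of all genes called in that comparison.

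Of 14 Wnt receptors and targets, 5 fell and none rose, beside 9.51% of all genes called lower, with a median of -0.25. Glul, the glutamine synthetase gene of hepatocytes at the central vein, read 11.03, 9.70, 10.43 and 9.94 in Rab5 siRNA livers, against 11.39, 11.51, 11.45 and 11.39 in control siRNA livers and 11.67 and 11.66 in PBS livers, and fell by 1.16 (SE 0.216, adjusted p 0.00160). Tbx3 fell by 0.79, Sp5 by 0.67 and Rnf43 by 0.63, and Lgr4, a receptor for R-spondins named after its value was seen, fell by 0.47. The count was 2 without control siRNA replicate 3 and 3 without control siRNA replicate 4. Of the ligand genes, Wnt2 and Rspo3 were not called, and Wnt9b, another ligand gene of the central vein named after its value was seen, differed by 0.04.

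Markers of other cell types in the liver moved in the same arrays. Of all genes 13.8% were called higher and 9.51% lower. Of 16 Kupffer cell and macrophage markers 9 rose and none fell, and their mean level was 0.10, 0.64, 0.64 and 0.68 above the control siRNA mean in the 4 Rab5 siRNA arrays. Control siRNA arrays ranged from -0.20 to 0.12 around that mean. Mean levels of the list lay at 8.52 to 9.10 in Rab5 siRNA livers, 8.22 to 8.55 in control siRNA livers and 8.27 to 8.42 in PBS livers. Without Rab5 siRNA replicate 1, whose level was near the controls, 12 of the 16 rose, and without Rab5 siRNA replicate 2, 5 did. Cd68, a macrophage lysosome marker, rose by 1.08, Cd5l by 1.01, Mpeg1 by 0.94 and the scavenger receptor gene Marco by 1.09.

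Of 15 stellate cell and fibroblast markers 5 rose and none fell, beside 13.8% of all genes called higher. When 1 array was left out, 3 to 7 of the 15 markers rose. Their mean level was 0.07, 0.29, 0.37 and 0.42 above the control siRNA mean in Rab5 siRNA arrays, and mean levels lay at 6.75 to 7.10 in Rab5 siRNA livers, 6.47 to 6.85 in control siRNA livers and 6.65 to 6.68 in PBS livers. Vim, an intermediate filament gene that endothelium also expresses, rose by 0.96, Acta2 by 0.69, Tagln by 0.46 and Ngfr by 0.45. Against PBS livers Vim (1.18) and Tagln (0.67) were called too, but Acta2 (0.43, adjusted p 0.121) and Ngfr (0.14, adjusted p 0.655) were not. In the same 4 Rab5 siRNA arrays the sinusoidal genes stood at 0.07, 0.04, -0.25 and -0.12 around the control siRNA mean. The general genes stood at 0.07, -0.08, -0.14 and -0.25. The part of these other cells in the results for Stab1, Lyve1, Fcgr2b, Maf, Vcam1 and Cd93, genes that macrophages or other cells of the liver also express, was not tested.

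Rab5 siRNA replicate 1 lay at an end of the Rab5 siRNA range in many members too. It was the highest Rab5 siRNA array for Stab1, Stab2, Clec4g, Gpr182, Lyve1, Dnase1l3, Ptprb, Flt1, Tie1 and Eng. The same held for Egfl7, Sox18, Robo4, Cldn5, Esam, Nos3 and Wnt2. It was the lowest for Cdh5, Maf, Fli1, Bmp2 and Rspo3. Without it 11 members were called, 3 higher and 8 lower, since Bmp2 joined those that rose and Dnase1l3 and Robo4 those that fell. Calls over all genes also increased, to 3421 without that array beside 2993 with all arrays. The fewest members called with 1 array left out were 5, without Rab5 siRNA replicate 3, when 2371 genes were called in all. Clec4g, Gpr182, Flt4, Ptprb and Bmp6 were called without any single array.

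Of 3 measured lymphatic endothelial markers Reln, which stellate cells express strongly, rose (0.32, adjusted p 0.0451), and Pdpn differed by -0.21 (adjusted p 0.391). Reln is also on the stellate cell list, so the same call is counted in both lists. With 1 array left out, a gene of the list rose only without control siRNA replicate 4 or Rab5 siRNA replicate 4.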

How the data were processed

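The deposited table holds log2 expression values of 45101 probe sets in 10 liver arrays. The authors made them with Affymetrix Expression Console, RMA (robust multi-array average) and Partek 6.6, per the submitters' processing notes, which give no order of steps. RMA brings arrays close to the same distribution, although medians here still ran from 4.29 to 4.37. It can therefore hide a change common to all transcripts of a group. No detection calls were used, and precision is limited by how many arrays there were. Gene names came from the platform annotation: 34945 probe sets had 1 symbol, 932 had several, 9160 were unnamed here, and 64 control probe sets were left out. No symbol needed updating through the RefSeq gene table.

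Probe sets above the median of the table (4.33) in at least 2 arrays were kept (21068), and the brightest stood for its gene (12855 genes). In R 4.3.3, limma 3.58.1 fitted a mean per group over all 10 arrays with moderated variances (eBayes), and the code was tested on simulated data. SEs are moderated, adjusted p-values are Benjamini-Hochberg over all genes, and intervals are at 95%. Scores over several genes are descriptions without a p. All 35 members are named. Of the other lists, up to 4 called genes with the largest change are named, or the 2 with the largest change where fewer than 2 were called. The members and the lists were chosen with earlier results of these data known.

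Pairing was checked: deviations from the group means correlated at 0.149 to 0.391 between Rab5 siRNA and control siRNA arrays of the same replicate number (-0.335 to 0.199 for different numbers), so the titles' numbers were treated as pairs in a fit with the replicate block, tried as an alternative. Other filters, probe set choices, normalizations, variance models and omitted arrays were tried too.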

Additional observations from a re-analysis of the deposited data

Results flagged for a closer look

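In 3 of 68 groups of 4 arrays, from the 33 measured endothelial genes and the score of sinusoidal minus general markers, 1 array stood apart from the other 3 by a gap that took up most of the whole range (the 95% limit of Dixon's gap test for 4 values). That is 4.41% of the groups, and about 1 in 20 is to be had by chance. Wnt2, a secreted Wnt ligand, read 6.31 in Rab5 siRNA replicate 1, and the nearest of the other 3 Rab5 siRNA arrays read 5.59. The gap was 0.880 of the range. Fli1, an ETS transcription factor, read 4.95 in Rab5 siRNA replicate 4, with the nearest array at 4.81, a gap of 0.890 of a narrow range. Egfl7, a secreted vessel factor, read 7.15 in control siRNA replicate 4, with the nearest control siRNA array at 7.29, a gap of 0.842 of the range. Wnt2, Fli1 and Egfl7 were not called between Rab5 siRNA and control siRNA livers.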

How the results depend on the processing

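In all, 24 alternative settings were run. For the 8 called members they gave 190 values, of which 174 kept direction and call, 16 kept the direction without the call and 0 changed sign. Clec4g and Ptprb (24 of 24 settings) and Bmp6 (23 of 23) were called throughout, Gpr182 in 23 of 24, Oit3 and Flt4 in 22 of 24, Cdh5 in 18 of 24 and Sox18 in 18 of 23. The replicate block, which pairs arrays of the same number, called 3712 genes and 8 members and changed no call of a member. The number of genes called was 4540 with every probe set tested on its own and 1788 without both siRNA arrays numbered 2. Called members numbered 5 by ordinary least squares and 5 without both arrays numbered 2, and 5 to 11 with 1 array left out. Against PBS, called members numbered 5 with array weights, 1 without both arrays numbered 2, and 1 to 4 with 1 array left out. The score of 4 sinusoidal minus 3 general markers lay between -0.26 and -0.05, with -0.05 for the mean of a gene's probe sets and -0.09 without Rab5 siRNA replicate 3, and the filter and variance model do not enter it. The filter at the 75th percentile left 21 members and removed the called members Bmp6 and Sox18, which therefore have 23 settings. The score without Pecam1 and the counts of the other gene lists with 1 array left out were chosen after seeing the data. Among uncalled members, 590 values held 11 that were called and 29 that changed sign. Maf was -0.24 with the mean of its probe sets and -0.40 with the most variable one. Egfl7 was -0.0653 with the mean, -0.0374 with the most variable one, -0.0491 with quantile normalization, -0.0542 with array weights and -0.0765 without both arrays numbered 1. Stab2 was -0.0128 with quantile normalization and -0.00147 without both arrays numbered 1. Nos3 was -0.00344 with quantile normalization, -0.0364 with array weights, -0.163 without both arrays numbered 1 and -0.0243 without both arrays numbered 2. Wnt2 was -0.0225 with array weights and -0.0950 without both arrays numbered 1, and Lyve1 was -0.17 without both arrays numbered 1. The cause of these changes was not tested. With 1 array left out the range was -0.00382 to 0.0913 for Stab2, -0.0339 to 0.372 for Lyve1, -0.0188 to 0.184 for Maf, -0.125 to 0.112 for Nos3, -0.0854 to 0.0749 for Egfl7, -0.00717 to 0.110 for Esam, -0.102 to 0.169 for Wnt2, -0.209 to 0.0357 for Fcgr2b and -0.182 to 0.0347 for Tie1. Array number and the lack of detection calls limit what dim genes such as Pecam1, Emcn and Erg can show.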

Other observations

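Marker lists of further cell types gave these values between Rab5 siRNA and control siRNA livers. Of all genes 13.8% were called higher and 9.51% lower in that comparison. Of 10 measured hepatocyte markers 2 fell and none rose, with a median of -0.14: Tdo2, a tryptophan-degrading enzyme, fell by 1.01 (adjusted p 0.00518) and Cps1, a urea cycle enzyme, fell by 0.35 (adjusted p 0.0270). With 1 array left out, 1 or 2 of these markers fell. Of 6 measured lymphocyte markers 1 fell: Ighm, the immunoglobulin M heavy chain, fell by 1.38 (adjusted p 4.94e-05), and Ptprc, the common leukocyte antigen CD45, differed by 0.38 (adjusted p 0.312). Without Rab5 siRNA replicate 1, 1 lymphocyte marker and 1 platelet marker rose. Ighm read 5.93, 5.74, 5.85 and 5.82 in Rab5 siRNA livers, against 6.85, 7.43, 7.35 and 7.22 in control siRNA livers and 6.63 and 7.42 in PBS livers, without overlap.

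The blood left in the vessels was read through platelet and red cell markers. Of 5 platelet markers 1 fell against control siRNA: Ppbp, a platelet chemokine, fell by 0.71 (adjusted p 0.0277) in groups that overlapped. Pf4, another, differed by 0.30 (adjusted p 0.0876). No platelet marker fell without control siRNA replicate 2 or 3 or without Rab5 siRNA replicate 1, 2 or 3. Against PBS livers Pf4 was called higher (0.53, adjusted p 0.0211) and Ppbp was not called (-0.47, adjusted p 0.255). The single measured red cell marker, Alas2, the first enzyme of heme synthesis in red cells, fell by 1.67 against control siRNA (adjusted p 5.84e-05). It read 7.55, 7.23, 7.35 and 6.46 in Rab5 siRNA livers, against 9.07, 8.85, 8.73 and 8.64 in control siRNA livers and 9.16 and 8.71 in PBS livers. Of 3 cholangiocyte markers Sox9 rose by 0.45 (adjusted p 0.0298) and Epcam differed by 0.36 (adjusted p 0.114). No cholangiocyte marker rose without control siRNA replicate 2 or 3 or without Rab5 siRNA replicate 1 or 3.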
